A study of Mus musculus with 12 samples.

Results

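The unfolded protein and heat shock response genes described here are a list of 32 genes, found by gene symbol in a table of 52550 genes, and all 32 passed the filter on low counts among the 15885 protein-coding genes tested. They comprise 14 chaperones and folding enzymes of the endoplasmic reticulum (ER), 3 genes of ER-associated degradation, the 3 stress sensors of the ER membrane, 5 transcription and feedback factors downstream of these sensors, and 7 heat shock proteins that work mainly in the cytosol. The list was drawn up by gene symbol and known role, with earlier results of these data known. RNA was sequenced from whole lungs of neonatal mice to ask how a lung with reduced adrenomedullin, a vasoactive peptide, responds to inflammation. WT mice and Adm+/- mice, which are haplodeficient for adrenomedullin, shared a C57Bl/6J background and received 3 daily intraperitoneal injections from postnatal day 3. The injections held either PBS or lipopolysaccharide (LPS) of E. coli O55:B5 at 6 mg/kg, and lungs were taken on postnatal day 5, 6 h after the last injection. Each of the 4 groups, WT PBS, WT LPS, Adm+/- PBS and Adm+/- LPS, had 3 libraries of 1 mouse each. The Adm+/- line came from another inbred background and was backcrossed to C57Bl/6J, and a whole lung mixes epithelium, endothelium, mesenchyme, blood and immune cells, so fewer cells of a type and less RNA per cell cannot be told apart.

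Proteins that enter the secretory pathway fold in the ER with the help of chaperones such as BiP, the product of Hspa5. When unfolded proteins accumulate, the sensors ATF6, IRE1alpha (Ern1) and PERK (Eif2ak3) start the unfolded protein response (UPR), in which cleaved ATF6 and spliced XBP1 raise chaperone transcription, and PERK slows translation while it favours that of ATF4. The heat shock response is the corresponding programme of the cytosol, in which HSF1 switches on chaperones such as those encoded by Hspa1a, Hspa1b and Dnajb1. In the lung, type II pneumocytes and plasma cells are known for a large secretory load. Gene-level counts hold neither Xbp1 splicing, nor ATF6 cleavage, nor phosphorylation of PERK and IRE1alpha, and these steps were not measured.

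The promoters of the ER members are shown first because the classic ER stress element is the known control site of many ER chaperones. RefSeq promoter windows of 300 bases, 250 before and 50 after the start, were held for 27 of the 32 members in 29 windows (Hyou1, Manf, Atf6, Hspa8 and Hsp90aa1 had none). The ER stress element (ERSE, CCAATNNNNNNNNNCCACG on either strand), which binds NF-Y at one end and ATF6 or XBP1 at the other, was found in 7 of the 29 windows (24.1%), against 39 of 32851 windows of the same length genome-wide (0.119%). Below, the ERSE letters are in capitals with 5 bases on each side, on the strand that reads 5′ to 3′ as the element, in build GRCm38.p6.
Hspa5 (chr2:34772020-34772048, plus strand): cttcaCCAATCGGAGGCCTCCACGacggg
Calr (chr8:84847070-84847098, plus strand, opposite to the gene): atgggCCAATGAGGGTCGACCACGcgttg
Pdia6 (chr12:17266486-17266514, plus strand): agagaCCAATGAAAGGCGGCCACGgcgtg
Creld2 (chr15:88819515-88819543, minus strand, opposite to the gene): gtggaCCAATTGAGGCTCGCCACGagaag
Hsp90b1, distal (chr10:86705633-86705661, minus strand): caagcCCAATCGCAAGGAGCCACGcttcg
Hsp90b1, proximal (chr10:86705528-86705556, plus strand, opposite to the gene): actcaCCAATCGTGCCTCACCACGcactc
Dnajc3 (chr14:118937822-118937850, plus strand): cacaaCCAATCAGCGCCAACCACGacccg
Canx (chr11:50325795-50325823, minus strand): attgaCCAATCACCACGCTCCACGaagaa

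The related ERSE-II (ATTGG and CCACG with 1 base between them, on either strand) was found only in the windows of Herpud1 and Dnajb11 among the members, and in 0.0365% of all windows. Herpud1 also held a C/EBP-ATF response element (CARE, TGATGNAA on either strand), the kind of site bound by ATF4, which Trib3 shared and which 3.97% of all windows held. The heat shock element searched (HSE, GAANNTTCNNGAA) was found in the Hsph1 window alone and in 0.603% of all windows. The 250 bases before the Herpud1 start follow with both of its elements in capitals, the CARE (on the opposite strand) first and the ERSE-II second.
Herpud1 (GRCm38.p6, chr8:94386179-94386428, plus strand): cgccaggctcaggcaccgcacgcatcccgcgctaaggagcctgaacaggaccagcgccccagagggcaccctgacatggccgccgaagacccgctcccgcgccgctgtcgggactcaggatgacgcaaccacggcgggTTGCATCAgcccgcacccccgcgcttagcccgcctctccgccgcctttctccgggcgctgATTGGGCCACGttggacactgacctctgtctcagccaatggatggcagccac
A match describes letters in this window and no measured binding. The Hspa5 site lies inside the Gencode span of the gene, whose most upstream annotated start is at base 34771970 of chromosome 2.

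**Figure D1:**
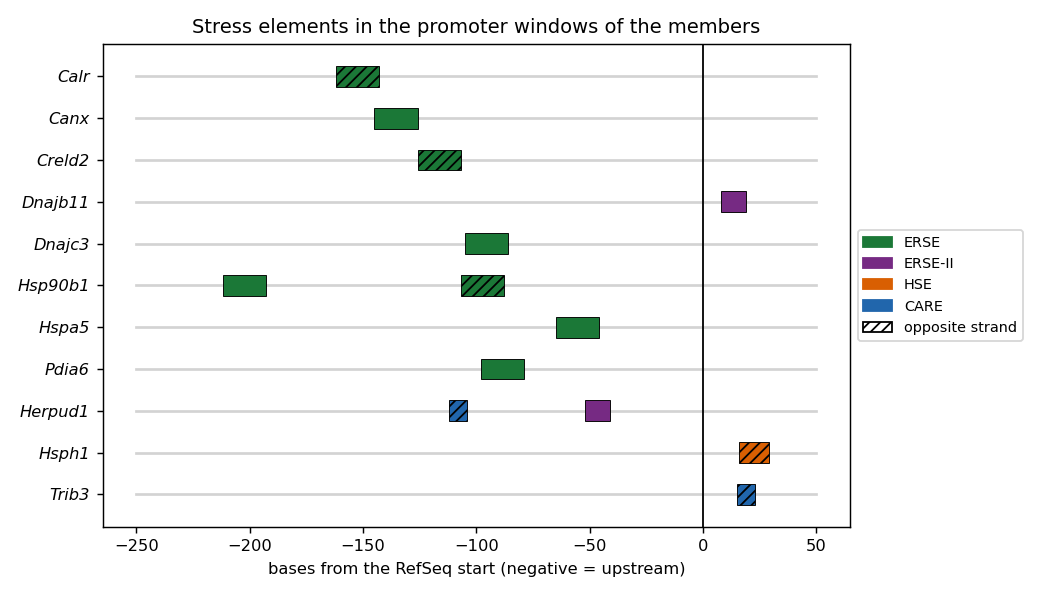
Position of each stress element in the promoter windows of the members that hold one, in bases from the RefSeq start (x axis), with 1 line per gene, colour for the element and hatching for the strand opposite to the gene. The ERSE matches all sit before the start, and Herpud1 is the window with 2 different elements.

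Per kilobase of exon, ER chaperones and Hspa8 were the most abundant members and the inducible Hsp70 genes the least. In WT PBS lungs the level of Calr, a calcium-binding lectin chaperone, was 191 CPM per kb, followed by Hspa5 at 161 CPM per kb ± 40.1 (SD, n = 3) and by Hspa8, the constitutive Hsp70, at 143 CPM per kb. The stress-inducible Hspa1b and Hspa1a were at 1.38 and 0.617 CPM per kb. CPM here are TMM-normalized counts, scaled by the library total over the tested protein-coding genes. Totals ranged from 22382535 to 38062873 counts per library, so that Hspa5 had at least 8997 counts in every library.

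Several libraries stood apart. In WT PBS library 5 and Adm+/- PBS library 6, 77.8% and 80.1% of counts fell on protein-coding genes and 16.6% and 13.3% on the noncoding RNA Gm26917, against 84.3% to 87.6% and 5.42% to 7.40% in the other 10 libraries. The same pair had summed levels of 43330 and 27650 CPM for 7 fibroblast and matrix markers, against 10280 to 15730 CPM elsewhere. All 3 WT LPS libraries held skeletal muscle transcripts (12 markers summed to 630 to 1822 CPM, and to no more than 39.7 CPM in the other groups), and libraries 9 and 11 of them also squamous epithelium transcripts (10 markers at 2980 and 1522 CPM, 25.8 CPM in library 10 and no more than 41.4 CPM in the other groups). Neutrophil markers summed to 40.8 to 186 CPM in PBS and to 1607 to 2966 CPM in LPS, and monocyte and macrophage markers to 1017 to 1277 CPM and to 1691 to 2379 CPM. For the check of the tissue, markers of type II pneumocytes summed to 12990 to 16650 CPM and of type I pneumocytes to 1812 to 2419 CPM over all libraries, with overlap of PBS and LPS in both genotypes. Endothelial markers were lower under LPS without overlap, at 2867 to 3510 CPM in WT PBS, 2478 to 2586 CPM in WT LPS, 2990 to 3401 CPM in Adm+/- PBS and 2723 to 2974 CPM in Adm+/- LPS. Airway secretory markers (7 genes) were higher without overlap, at 1103 to 2220 CPM in WT PBS, 2764 to 3072 CPM in WT LPS, 1066 to 1964 CPM in Adm+/- PBS and 2614 to 3134 CPM in Adm+/- LPS, and no marker of these lists was at 0 in every library. The level of Adm itself was low and overlapped between genotypes, at 3.96 to 8.15 CPM in WT and 2.87 to 6.28 CPM in Adm+/- lungs.

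The first question was how LPS changed these genes in WT lungs. Of 14 ER chaperones 5 fell (1, Pdia4, without WT PBS library 5 or without WT LPS library 11), 9 were not called and none rose, while the degradation gene Herpud1, the sensor gene Ern1 and the small heat shock gene Hspb1 rose. Of the 32 members, 8 were called in edgeR (adjusted p below 0.05 with a log2 fold change beyond 0.5 in either direction), 3 higher and 5 lower, which is 25% against 17.6% of all genes tested. By direction the background was 10.5% higher and 7.09% lower. The median log2 fold change of the members was −0.01, and that of all genes tested 0.01. The Adm+/- lungs had 7 called members, 4 higher and 3 lower, which is 21.9% against a background of 25% (12.8% higher and 12.2% lower), with a median log2 fold change of −0.08 against −0.01 for all genes tested. As a list, the members were called at about the rate of other genes in Adm+/- lungs.

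**Figure D2:**
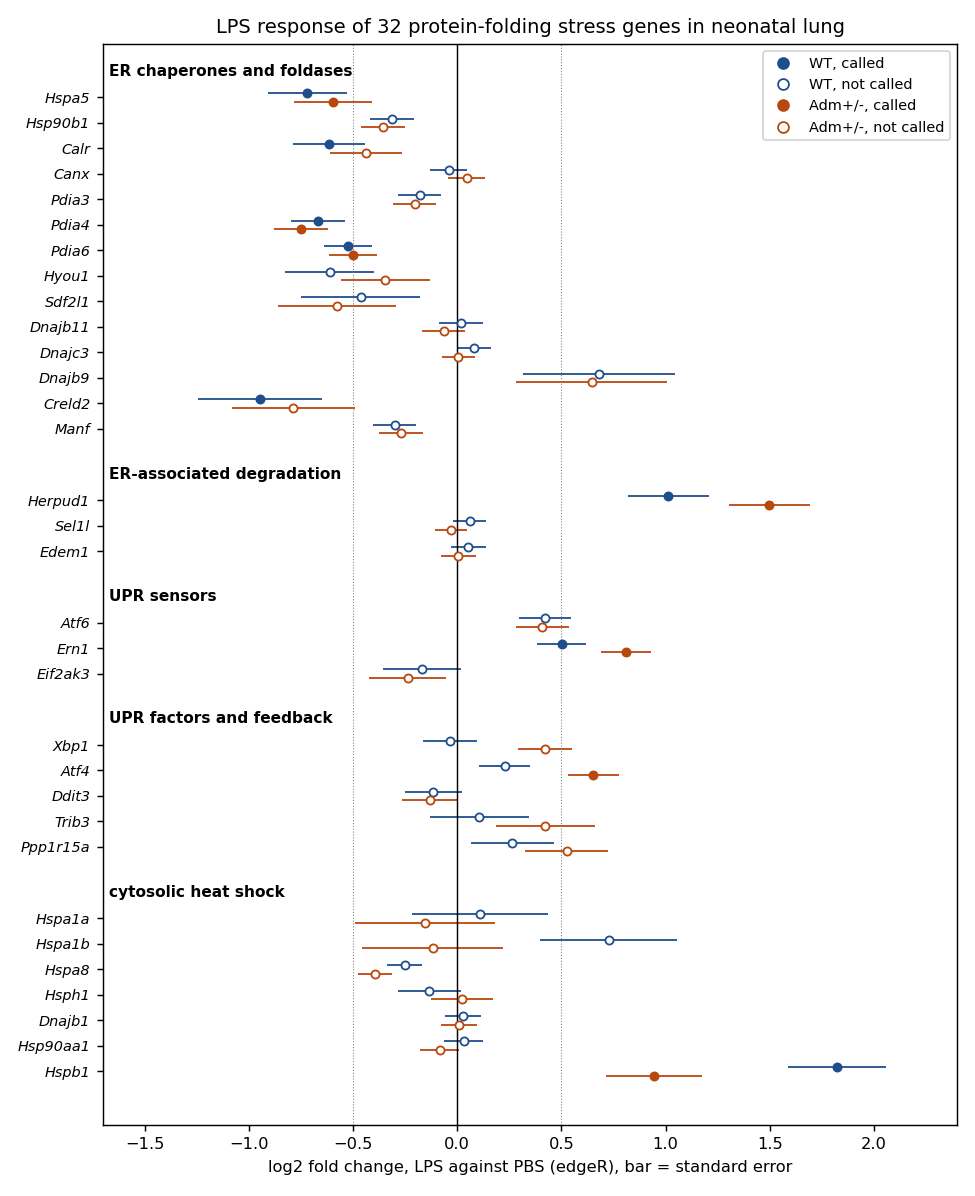
Log2 fold change of LPS against PBS for the 32 members, grouped by role (x axis, points with standard error bars, WT in blue and Adm+/- in orange, filled where called). All called ER chaperones lie left of 0, Herpud1, Ern1 and Hspb1 lie right of it in both genotypes, and Atf4 is filled for Adm+/- alone.

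Among the 14 ER chaperones and folding enzymes, 5 fell in WT lungs and 3 in Adm+/- lungs, and none rose. Only Pdia4 was still called lower without WT PBS library 5 or WT LPS library 11 in WT lungs, and without Adm+/- PBS library 6 or Adm+/- LPS library 2 or 12 in Adm+/- lungs. The group's median log2 fold change was −0.39 in WT and −0.35 in Adm+/- mice, with 11 of the 14 negative in each. The groups did not overlap for 9 of them in WT (8 lower and 1 higher) and for 6 in Adm+/- mice (5 lower and 1 higher), where 36.2% (18.3% higher and 17.9% lower) and 53.7% (26.6% higher and 27.1% lower) of all genes tested did not overlap. Summed over the 14 genes, the level was 3090, 3358 and 3818 CPM in WT PBS libraries 3, 4 and 5 and 2823, 2555 and 2403 CPM in WT LPS libraries 9, 10 and 11. It was 4000, 3453 and 3106 CPM in Adm+/- PBS libraries 6, 7 and 8 and 3034, 2734 and 2591 CPM in Adm+/- LPS libraries 1, 2 and 12. Every LPS library lay below every PBS library of its genotype, and libraries 5 and 6 were the highest. Summed endothelial markers (7 genes) and fibroblast markers (7 genes) were also lower in every LPS library than in every PBS library of the genotype, the fibroblast sum at 14950 to 43330 CPM in WT PBS, 10280 to 14760 CPM in WT LPS, 14330 to 27650 CPM in Adm+/- PBS and 10880 to 13000 CPM in Adm+/- LPS. The single markers were mixed. Of the fibroblast markers 2 were called higher and none lower in WT and 1 lower and none higher in Adm+/- mice, with 3 of 7 positive in each, and of the endothelial markers 1 and 3 were called lower and none higher, with 1 and 3 of 7 positive. The part of these cells in the fall of the chaperones was not tested. Libraries are given in this order from here on.

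Hspa5 (ENSMUSG00000026864, mm10 chr2:34771970-34777547) encodes BiP, the main ER Hsp70 and the repressor that keeps the UPR sensors inactive. It was at 536, 638 and 867 CPM in WT PBS and at 437, 444 and 358 CPM in WT LPS libraries. Among Adm+/- libraries the values were 882, 671 and 577 CPM in PBS and 497, 471 and 441 CPM in LPS. The LPS libraries were all lower, and the PBS libraries 5 and 6 the highest. LPS changed it by a log2 fold change of −0.72 (SE 0.19, adjusted p = 0.0204, edgeR) in WT and −0.60 (SE 0.19, adjusted p = 0.0323) in Adm+/- mice. Without WT PBS library 5 the WT value was −0.51 (adjusted p = 0.0523), and without Adm+/- PBS library 6 the Adm+/- value was −0.42 (adjusted p = 0.122), so both calls ended. Leaving out WT LPS library 9 or 11 also ended the WT call (adjusted p = 0.0578 and 0.0654), as did a fit of only the libraries compared (adjusted p = 0.0640). The Adm+/- call also ended without each of the other Adm+/- libraries except PBS library 8. When both libraries 5 and 6 were left out together, a choice made after the data were seen, the fall was −0.51 in WT (adjusted p = 0.0169, still called) and −0.41 in Adm+/- mice (adjusted p = 0.0243, below the fold threshold).

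Pdia4 (ENSMUSG00000025823, mm10 chr6:47796141-47813430) encodes a protein disulfide isomerase that forms and rearranges disulfide bonds. Among the ER chaperones called lower, only Pdia4 kept its calls with any library left out. Its level was 152, 167 and 194 CPM in WT PBS and 111, 107 and 105 CPM in WT LPS, and 213, 176 and 158 CPM in Adm+/- PBS and 119, 108 and 97.7 CPM in Adm+/- LPS. No LPS library reached any PBS library. On the log2 scale LPS changed it by −0.67 (SE 0.13, adjusted p = 0.00496, edgeR) in WT and −0.75 (SE 0.13, adjusted p = 0.00138) in Adm+/- mice. The calls held with any library left out, with values from −0.75 to −0.57 in WT and from −0.84 to −0.63 in Adm+/- mice, and they were lost in the test against a fold of 0.5 (adjusted p = 0.263 and 0.0818). Pdia6, another disulfide isomerase, which also dampens IRE1alpha, went from 211, 223 and 252 CPM to 164, 161 and 152 CPM in WT and from 268, 242 and 220 CPM to 195, 166 and 154 CPM in Adm+/- lungs. The groups were again apart, and the log2 fold changes of −0.52 (SE 0.12, adjusted p = 0.00881) and −0.50 (SE 0.11, adjusted p = 0.00694) lay at the fold threshold. They moved to −0.45 and −0.43 without libraries 5 and 6, where the adjusted p remained at 0.0147 and 0.0102 and the calls ended. The WT call also ended without WT LPS library 11 (−0.496), and the Adm+/- call without Adm+/- LPS library 2 or 12 (−0.48 and −0.43), with RLE size factors, in DESeq2 (both −0.49) and with only the libraries compared (−0.499).

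Creld2, a secreted ER disulfide isomerase and a known UPR target, showed the largest fitted fall of all members and one of the least certain. Its level was 36.5, 50.4 and 88.7 CPM in WT PBS and 28.8, 33.8 and 28.3 CPM in WT LPS. The Adm+/- levels were 73.3, 46.2 and 40.1 CPM in PBS and 34.1, 26.9 and 31.5 CPM in LPS. The groups did not overlap, yet libraries 5 and 6 had much of the PBS signal. The log2 fold change was −0.95 in WT (SE 0.30, adjusted p = 0.0419, edgeR, called) and −0.79 in Adm+/- mice (SE 0.30, adjusted p = 0.0632, not called), and leaving out library 5 alone gave −0.52 in WT (adjusted p = 0.140). The WT call was kept only when WT PBS library 3 was the one left out, and the adjusted p lay between 0.0506 and 0.140 without any of the other 5. It was also lost in limma-voom (adjusted p = 0.0646), with all annotated gene types (0.0505) and with only the libraries compared (0.100). The Adm+/- fall was called in DESeq2 (adjusted p = 0.0337) and with only the libraries compared (0.0187), and it was −0.49 without Adm+/- PBS library 6.

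Calr (calreticulin, which holds glycoproteins for folding) was called in WT only, in edgeR. It went from 468, 522 and 663 CPM to 416, 329 and 335 CPM in WT lungs, without overlap, and from 638, 510 and 460 CPM to 469, 374 and 346 CPM in Adm+/- lungs, where 1 LPS library lay above the lowest PBS library. In edgeR the change was −0.61 (SE 0.17, adjusted p = 0.0280) and −0.44 (SE 0.17, adjusted p = 0.0769), with an interaction of 0.18 (adjusted p = 0.996), so a genotype difference was not shown. Without WT PBS library 5, WT LPS library 10 or WT LPS library 11 the WT call ended (adjusted p = 0.0770, 0.0809 and 0.0781), as with only the libraries compared (0.0689). Its membrane-bound relative Canx had log2 fold changes of −0.04 in WT and 0.04 in Adm+/- mice, with adjusted p = 0.768 and 0.743. Both are ERSE genes.

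The other ER chaperones passed no call in edgeR or limma-voom, and DESeq2 called Hyou1 lower in WT. Hsp90b1, which encodes the ER Hsp90 GRP94, was lower in each LPS library than in each PBS library of its genotype, at 377 to 429 CPM in WT PBS, 302 to 358 CPM in WT LPS, 385 to 453 CPM in Adm+/- PBS and 306 to 352 CPM in Adm+/- LPS. Its log2 fold changes were −0.31 (SE 0.11, adjusted p = 0.0550) and −0.35 (SE 0.11, adjusted p = 0.0254, below the fold threshold), and 15.7% of its exonic bases overlap other annotated genes. Hyou1 (GRP170) had −0.61 in WT (adjusted p = 0.0608), without overlap, and −0.35 in Adm+/- lungs (adjusted p = 0.243). Its WT fall was called in DESeq2 (adjusted p = 0.0330) and without WT PBS library 3 (−0.77, adjusted p = 0.0298), and it was −0.34 without WT PBS library 5, while the Adm+/- value was −0.15 without Adm+/- PBS library 6. Manf, a secreted ER stress protein, had −0.30 (adjusted p = 0.0607) and −0.27 (adjusted p = 0.0718). Sdf2l1 had −0.46 and −0.58 and Pdia3 −0.18 and −0.20, with adjusted p from 0.147 to 0.258. The co-chaperones Dnajb11 and Dnajc3 had log2 fold changes of 0.02 and 0.08 in WT and −0.07 and 0.01 in Adm+/- mice. Their SEs were 0.104 and 0.080 in both genotypes. Dnajb9 (ERdj4), which hands IRE1alpha to BiP, was the only ER chaperone whose LPS libraries all lay above the PBS libraries. It was at 20.9, 17.6 and 6.67 CPM in WT PBS, 28.9, 22.0 and 21.8 CPM in WT LPS, 8.89, 20.3 and 17.7 CPM in Adm+/- PBS and 24.5, 23.3 and 25.8 CPM in Adm+/- LPS. The low values of 6.67 and 8.89 CPM came from libraries 5 and 6, and the log2 fold changes of 0.68 (SE 0.36, adjusted p = 0.198) and 0.65 (SE 0.36, adjusted p = 0.200) did not pass. They were 0.33 and 0.37 without both libraries.

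Libraries 5 and 6 were the 2 highest of the 6 PBS libraries for 12 members (37.5%, against 29.1% of all genes tested), among them Hspa5, Calr, Pdia4, Pdia6, Hyou1, Sdf2l1, Creld2 and Eif2ak3. They were the 2 lowest for 4 members (12.5%, against 26.7%), namely Dnajb9, Atf6, Atf4 and Hspb1. Beside their fibroblast and Gm26917 values, these libraries had the highest sums of 8 B and plasma cell markers (386 and 340 CPM, against 248 to 309 CPM in the other 10) and of endothelial markers (3510 and 3401 CPM), and the lowest of 7 airway secretory markers (1103 and 1066 CPM, against 1656 to 2220 CPM in the other PBS libraries). The part of these values in the members' levels was not tested. Without both libraries, 6 members were called in WT (3 higher and 3 lower) and 7 in Adm+/- mice (6 higher and 1 lower). The share of all genes called in that fit is not given here, so these counts cannot be set against a background. In that fit Hspa5, Pdia4 and Creld2 remained called lower in WT and Pdia4 in Adm+/- mice, and Calr and Pdia6 in WT and Hspa5 and Pdia6 in Adm+/- mice lost their calls. Ern1 also lost its WT call there, while Ppp1r15a was called higher in both genotypes and Trib3 in Adm+/- mice.

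**Figure D3:**
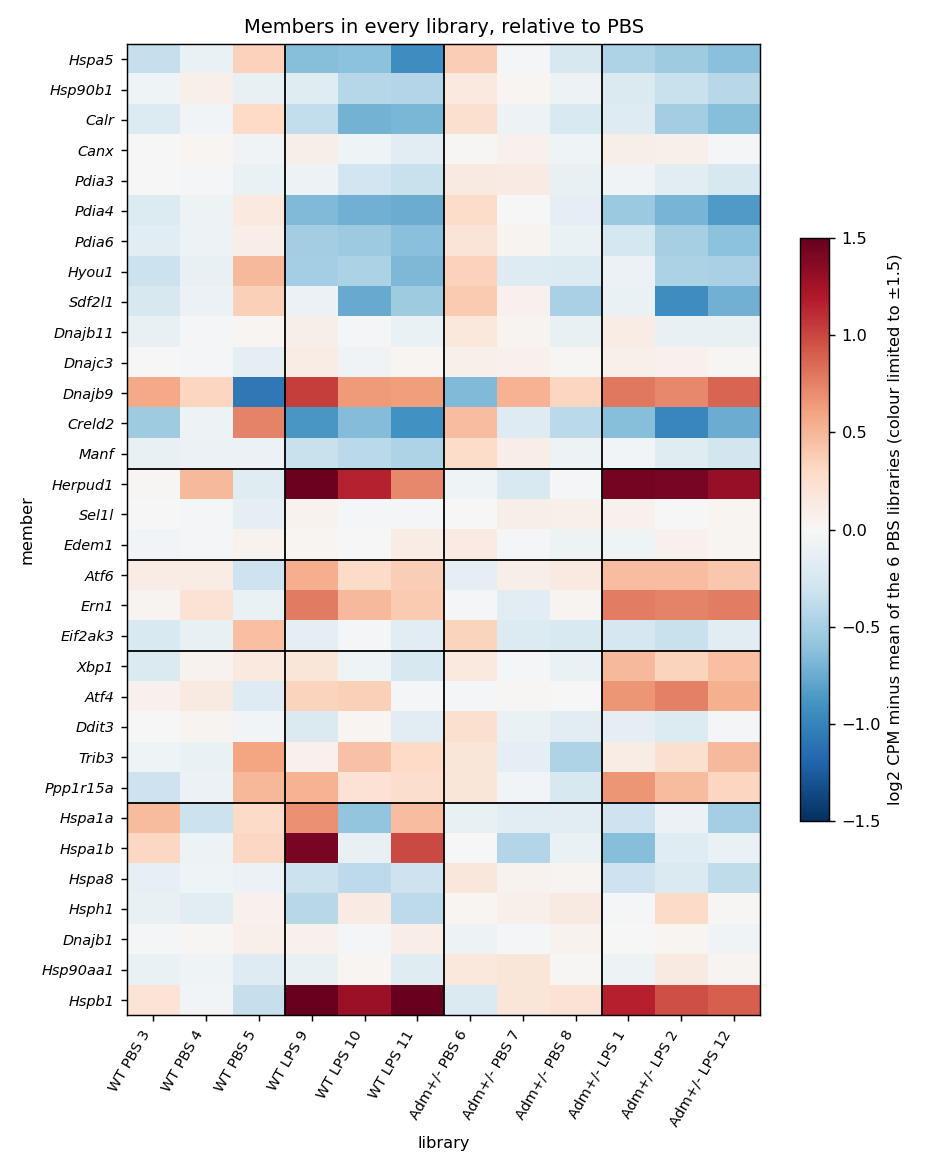
Each member (rows, by role) in each library (columns, by group), as log2 CPM minus the mean of the 6 PBS libraries, with red for higher and blue for lower. The ER chaperone block is mostly blue under LPS, and the PBS libraries WT 5 and Adm+/- 6 are red for Hspa5, Calr, Hyou1 and Creld2 and blue for Dnajb9.

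ER-associated degradation was represented by Herpud1, Sel1l and Edem1, of which Herpud1 alone was called. Herpud1 (ENSMUSG00000031770, mm10 chr8:94386438-94395377) encodes a membrane protein that organizes the HRD1 ligase complex. It was at 72.3, 99.3 and 62.5 CPM in WT PBS and rose to 197, 158 and 117 CPM in WT LPS. The Adm+/- libraries rose from 67.9, 60.6 and 70.2 CPM to 193, 192 and 176 CPM. PBS and LPS did not overlap in either genotype, the 3 Adm+/- LPS libraries lay close together, and WT LPS library 11 was the lowest LPS library. Its log2 fold change was 1.01 (SE 0.19, adjusted p = 0.00452, edgeR), a 2.02-fold rise, in WT and 1.497 (SE 0.20, adjusted p = 0.000268), a 2.82-fold rise, in Adm+/- mice. It stayed called with each library left out (0.81 to 1.22 in WT and 1.43 to 1.54 in Adm+/- mice). The difference between genotypes in this response was 0.48 (adjusted p = 0.746 for the interaction). Sel1l, the partner of HRD1, had log2 fold changes of 0.06 and −0.03 and Edem1, which directs misfolded glycoproteins to degradation, of 0.05 and 0.00, each with an SE of no more than 0.09.

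Of the 3 sensor genes Ern1 was called in both genotypes in edgeR, and Atf6 and Eif2ak3 in neither. Ern1 (mm10 chr11:106394650-106487852) encodes IRE1alpha, the nuclease that splices Xbp1. It rose from 71.6, 80.6 and 64.8 CPM to 119, 97.2 and 90.9 CPM in WT and from 68.0, 61.6 and 71.6 CPM to 118, 117 and 118 CPM in Adm+/- lungs. The groups were apart in both genotypes, with little spread in Adm+/- LPS. The log2 fold change was 0.50 (SE 0.12, adjusted p = 0.0128, edgeR), just past the fold threshold, in WT and 0.81 (SE 0.12, adjusted p = 0.000528) in Adm+/- mice. The WT value was 0.37 (adjusted p = 0.0703) without WT LPS library 9, and below the fold threshold without WT PBS library 3 or 5 (0.49 and 0.43), so that the WT call ended. It was also lost in limma-voom (0.497), with all annotated gene types (0.48) and with only the libraries compared (0.498, adjusted p = 0.0875). The Adm+/- value ranged from 0.75 to 0.86 over its libraries left out in turn and stayed called. Atf6 had similar log2 fold changes in both genotypes, 0.42 (SE 0.13, adjusted p = 0.0357) and 0.41 (SE 0.13, adjusted p = 0.0296), below the fold threshold, and its LPS libraries (106 to 127 CPM) all lay above the PBS libraries (70.1 to 95.6 CPM). Eif2ak3, the PERK gene, had −0.17 (adjusted p = 0.535) and −0.24 (adjusted p = 0.360), and without libraries 5 and 6 it had 0.06 and −0.03.

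Of the 5 downstream factors none was called in WT lungs (edgeR, limma-voom and DESeq2, and 0 at an unadjusted edgeR p below 0.05), and in Adm+/- lungs edgeR and limma-voom called Atf4, and DESeq2 Atf4 and Ppp1r15a. Atf4 (mm10 chr15:80255184-80257541) encodes the transcription factor of the integrated stress response. It was at 112, 118 and 94.0 CPM in WT PBS and at 136, 138 and 106 CPM in WT LPS, with overlap. In Adm+/- lungs it rose from 106, 109 and 108 CPM to 171, 182 and 156 CPM, so that the lowest Adm+/- LPS library lay above every other library of the study. Its log2 fold change was 0.23 (SE 0.12, adjusted p = 0.198, edgeR) in WT and 0.65 (SE 0.12, adjusted p = 0.00223) in Adm+/- mice. The Adm+/- value stayed called with each library left out (0.60 to 0.71), and the call was lost in the test against a fold of 0.5 (adjusted p = 0.2095). Xbp1, the target of IRE1alpha and an activator of chaperone and secretory genes, had a similar pattern below the fold threshold. It was at 138, 167 and 178 CPM in WT PBS, 182, 154 and 137 CPM in WT LPS, 178, 158 and 150 CPM in Adm+/- PBS and 226, 203 and 221 CPM in Adm+/- LPS. The Adm+/- LPS libraries were the 3 highest of the 12, with log2 fold changes of −0.03 (adjusted p = 0.875) in WT and 0.42 (adjusted p = 0.0291) in Adm+/- mice.

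The pro-apoptotic factor Ddit3 (CHOP) and the pseudokinase Trib3, both targets of ATF4, did not pass. The log2 change of Ddit3 was −0.11 in WT (adjusted p = 0.568) and −0.13 in Adm+/- lungs (adjusted p = 0.496), and 10.9% of its exonic bases overlap other genes. Trib3 had 0.11 (SE 0.24, adjusted p = 0.773) and 0.42 (SE 0.24, adjusted p = 0.200). Ppp1r15a (GADD34), which restores translation by recruiting a phosphatase to eIF2alpha, was at 19.7, 23.0 and 34.7 CPM in WT PBS, 35.04, 28.4 and 29.3 CPM in WT LPS, 27.7, 23.7 and 20.7 CPM in Adm+/- PBS and 38.9, 34.1 and 30.6 CPM in Adm+/- LPS. Its groups overlapped in WT through library 5 and were apart in Adm+/- lungs, where the log2 fold change of 0.52 had an adjusted p of 0.0642 in edgeR. It was called there in DESeq2 (0.53, adjusted p = 0.0381) and with only the libraries compared (0.53, adjusted p = 0.0170). Without libraries 5 and 6 the values were 0.53 (adjusted p = 0.0262) in WT and 0.64 (adjusted p = 0.00687) in Adm+/- mice. A list of 8 immediate-early genes, to which tissue handling is also known to add, summed to 426 to 771 CPM in WT PBS and 691 to 867 CPM in WT LPS, with overlap, and to 481 to 608 CPM in Adm+/- PBS and 896 to 990 CPM in Adm+/- LPS. As with Atf4, the 3 Adm+/- LPS libraries were the highest of the 12. The part of this list in the values of Ppp1r15a and Atf4 was not tested.

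**Figure D4:**
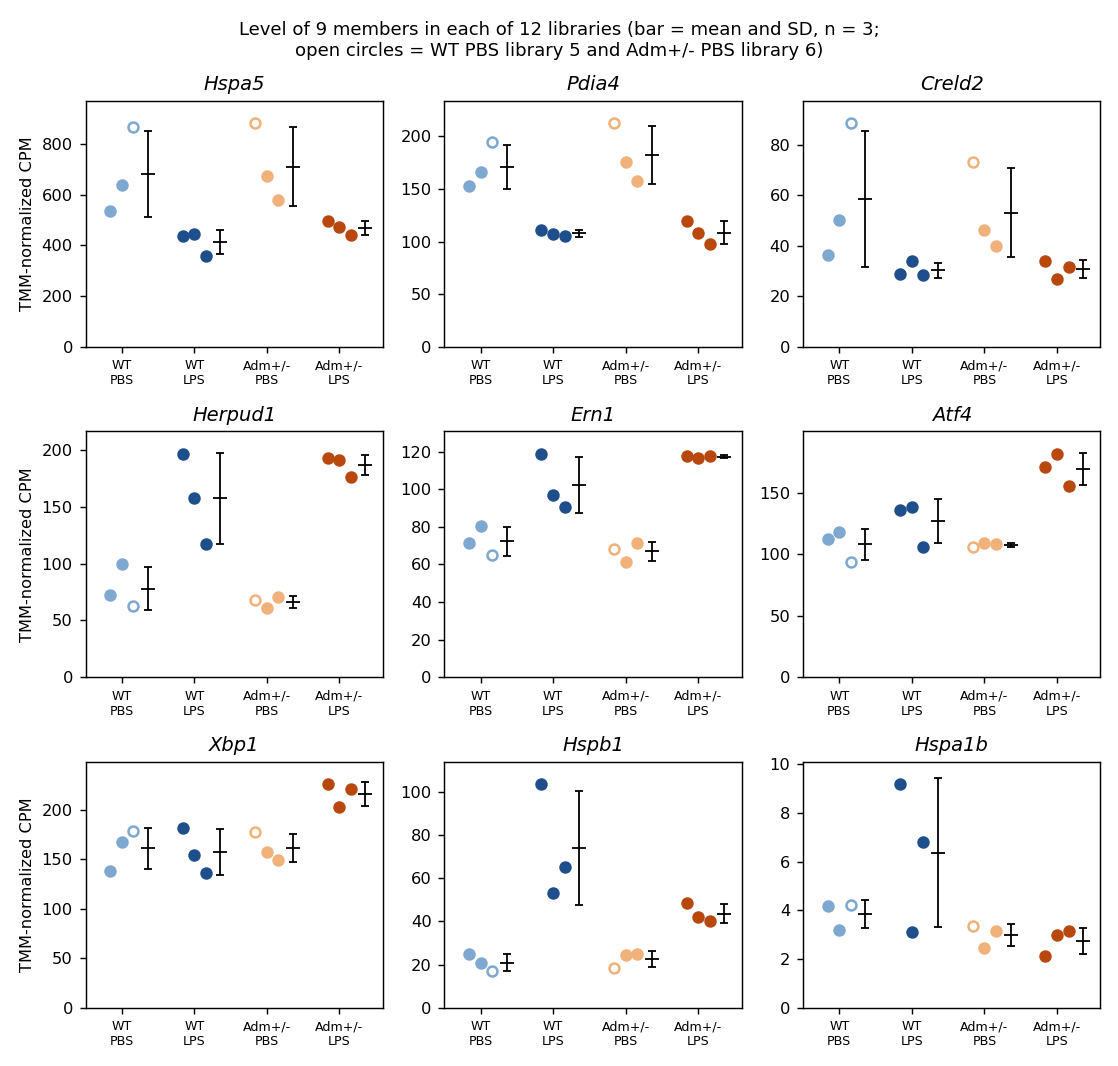
TMM-normalized CPM (y axis from 0) of 9 members in each library by group (points), with the mean and SD of the 3 libraries of a group beside them and open circles for WT PBS library 5 and Adm+/- PBS library 6. Hspa5, Pdia4 and Creld2 are lower and Herpud1, Ern1 and Hspb1 higher under LPS, and Atf4 and Xbp1 are highest in the 3 Adm+/- LPS libraries.

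In the heat shock group, Hspb1 was the only call among 7 genes in both genotypes. Hspb1 (ENSMUSG00000004951, mm10 chr5:135887919-135889563) encodes the small chaperone HSP25, which holds unfolded proteins and protects actin. It rose from 24.8, 20.9 and 16.9 CPM to 103, 53.0 and 65.2 CPM in WT lungs and from 18.5, 24.3 and 24.9 CPM to 48.4, 42.1 and 39.98 CPM in Adm+/- lungs. All 6 LPS libraries were above all 6 PBS libraries, and WT LPS library 9 was the highest by far. The log2 fold change was 1.82 (SE 0.24, adjusted p = 0.000600, edgeR), 3.54-fold, in WT and 0.94 (SE 0.23, adjusted p = 0.00990), 1.92-fold, in Adm+/- mice. Both held with each library left out, at 1.49 to 2.01 and 0.81 to 1.02. The Adm+/- call was lost in the test against a fold of 0.5 (adjusted p = 0.0890), and the WT call was kept. The order of the WT LPS libraries in Hspb1 (9, then 11, then 10) was that of their squamous markers (2980, 1522 and 25.8 CPM), and all 3 held muscle transcripts. Their neutrophil markers (2966, 1830 and 1701 CPM) and monocyte and macrophage markers (2250, 2236 and 1691 CPM) had this order too. The Adm+/- LPS libraries 1, 2 and 12 were in the same order in Hspb1 and in the squamous sum (41.4, 10.7 and 4.67 CPM), and their muscle markers summed to 19.3 to 39.7 CPM. Their neutrophil markers (1607, 1700 and 1924 CPM) and monocyte and macrophage markers (2379, 1919 and 2118 CPM) were in other orders. A share of 42.7% of the 100-base windows of the Hspb1 transcripts also occurs in the pseudogene Hsp25-ps1, so its counts may be incomplete.

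**Figure D5:**
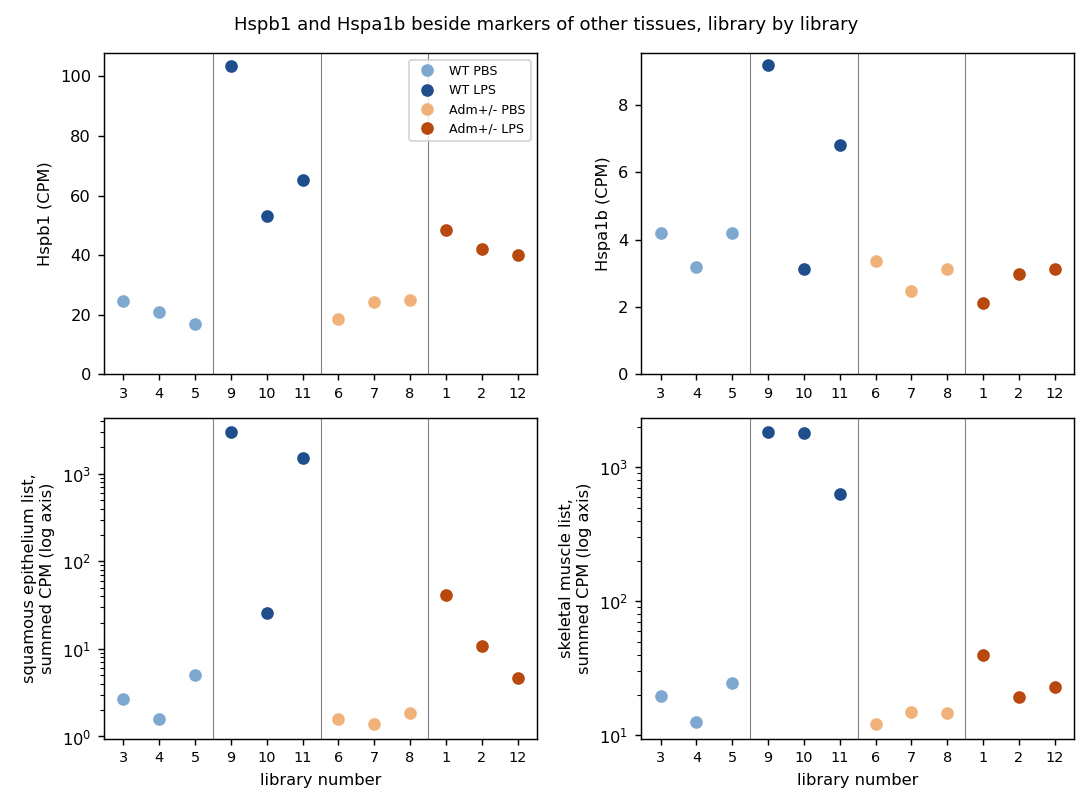
CPM of Hspb1 and Hspa1b (upper panels, linear axes from 0) and summed CPM of the squamous epithelium and skeletal muscle marker lists (lower panels, log axes) in each library, coloured by group. Hspb1 and Hspa1b are highest in WT LPS libraries 9 and 11, which are also the 2 libraries with squamous markers at 1522 and 2980 CPM.

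The inducible Hsp70 pair was scarce and uneven. Hspa1b was at 4.19, 3.20 and 4.20 CPM in WT PBS and at 9.18, 3.12 and 6.81 CPM in WT LPS. In Adm+/- lungs it was at 3.37, 2.47 and 3.14 CPM in PBS and at 2.13, 2.97 and 3.14 CPM in LPS. Only WT LPS libraries 9 and 11, those with squamous markers at 2980 and 1522 CPM, were high, and library 10 was at the PBS level. The log2 fold change was 0.73 (SE 0.33, adjusted p = 0.132) in WT and −0.12 (SE 0.34, adjusted p = 0.827) in Adm+/- mice. The WT value was 1.05 and called without WT LPS library 10 (adjusted p = 0.0126), and 0.36 without WT LPS library 9 (adjusted p = 0.516). Hspa1a, its near copy (48.6% of its windows are shared with Hspa1b or Hspa1l), was between 1.04 and 2.62 CPM in all libraries, with log2 fold changes of 0.11 and −0.16. The part of squamous, muscle, neutrophil and macrophage transcripts in the Hspa1b and Hspb1 values was not tested.

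The other 4 cytosolic chaperones were not called in edgeR, limma-voom or DESeq2. Hspa8, which folds nascent proteins and uncoats clathrin, was at 601, 626 and 616 CPM in WT PBS and 522, 499 and 525 CPM in WT LPS, and at 737, 678 and 671 CPM in Adm+/- PBS and 525, 561 and 501 CPM in Adm+/- LPS. The LPS libraries were all lower, with a log2 change of −0.25 in WT (SE 0.08, adjusted p = 0.0470) and −0.39 in Adm+/- lungs (SE 0.08, adjusted p = 0.00402), short of the fold threshold. Of its windows 62.8% occur in pseudogenes. Dnajb1 had 0.03 and 0.01 (SE 0.09 each) and Hsp90aa1 (47.5% of its windows occur in Gm12346, Gm5511 and Gm5844) 0.03 and −0.09 (SE 0.09 each), with adjusted p from 0.530 to 0.960. Hsph1 (HSP110) had −0.13 and 0.02 (SE 0.15 each).

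The genes that carry the ERSE letters are described as a group, chosen after the values were seen. Of the 7 members with ERSE, 4 fell in WT (Hspa5, Calr, Pdia6 and Creld2) and 2 in Adm+/- mice (Hspa5 and Pdia6), none rose, and the median log2 fold change was −0.52 in WT and −0.44 in Adm+/- mice. Of all genes tested 7.09% were called lower in WT and 12.2% in Adm+/- mice. The WT count was 0 without WT PBS library 5 and without WT LPS library 11, and the Adm+/- count was 0 without Adm+/- PBS library 6, LPS library 2 or LPS library 12. Pdia4 fell without the letters in its window. Outside the members 30 genes held ERSE, of which 12 were expressed enough to be tested. Of these 12, 12 had a negative log2 fold change in WT and 11 in Adm+/- mice (medians −0.32 and −0.47), against 7803 and 8142 of the 15885 genes tested. Only 2 of them were called in WT (Adcy3 and Spats2l) and 4 in Adm+/- mice (these and Acacb and Ptgdr2), all lower, beside the same backgrounds of 7.09% and 12.2%. The ERAD genes Derl3 and Syvn1, which belong to them, had −0.28 and −0.09 in WT. The WT values of the 12 ran from −1.29 (Xlr3b) to −0.0056 (Pan2), and the Adm+/- values from −1.355 (Xlr3a) to 0.060 (Pan2). The 12 include the related genes Xlr3a and Xlr3b and so are not all independent. No fit with 1 library left out was read for the 12 as a group. Of the 2 members with ERSE-II, Herpud1 rose in both genotypes and Dnajb11 had 0.02 (adjusted p = 0.917) in WT and −0.07 (adjusted p = 0.672) in Adm+/- mice. Of 7 tested ERSE-II genes outside the members, 1 was called in WT and 2 in Adm+/- mice, all higher, beside 10.5% and 12.8% of all genes called higher.

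The rest of the protein-folding network was read from 174 further genes, of which 166 were tested. Of these, 13 rose and 6 fell in WT lungs (11.4% called against 17.6% of all genes), and 20 rose and 11 fell in Adm+/- lungs (18.7% against 25%). The ATF4 target list, chosen like the others with earlier results of these data known, had median log2 fold changes of 0.25 and 0.61. Of its 25 genes, 9 were called higher and 1 lower in WT, and 12 higher and 3 lower in Adm+/- mice. Of all genes tested, 10.5% and 12.8% were called higher and 7.09% and 12.2% lower. Ddit3 and Trib3, the ATF4 targets among the members, were not called in either genotype in edgeR. The cystine carrier gene Slc7a11 rose from 2.10 to 30.9 CPM in WT and from 1.39 to 62.5 CPM in Adm+/- lungs (log2 fold changes 3.85 and 5.46, adjusted p = 0.000379 and 6.09e-05). The amino acid carrier gene Slc7a5 rose by 1.22 (adjusted p = 0.00270) and 1.49 (adjusted p = 0.000426), and the stress-induced Nupr1 by 0.53 (adjusted p = 0.0260) and 1.06 (adjusted p = 0.000384). Slc7a11 and Slc7a5 are also known to be induced in activated myeloid cells, whose markers rose in the same libraries, and the part of those cells was not tested.

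Of the further ER genes, 13.6% in WT and 9.09% in Adm+/- lungs were called among those of folding, 0% and 10% among those of ERAD and 0% and 15% among UPR regulators, beside 17.6% and 25% of all genes. An unadjusted edgeR p below 0.05 was reached by 36.7% and 41.8% of all genes. Among 22 other ER folding genes, 1 rose (Serp1, which stabilizes membrane proteins, 0.56, adjusted p = 0.00304) and 2 fell in WT, Mesd, a chaperone of LDL receptors (−0.72, adjusted p = 0.0135), and Creld1 (−0.89, adjusted p = 0.0267). In Adm+/- lungs Mesd (−0.68, adjusted p = 0.0119) and Creld1 (−0.75, adjusted p = 0.0384) fell and none rose. Of 20 further ERAD genes none was called in WT by edgeR, limma-voom or DESeq2 (4 at an unadjusted edgeR p below 0.05), and 2 rose in Adm+/- mice, Herpud2 (0.53, adjusted p = 0.0197) and the ubiquitin-conjugating Ube2g2 (0.56, adjusted p = 0.0230). Of 20 further UPR regulators edgeR and limma-voom called none in WT and DESeq2 1 (6 at an unadjusted edgeR p below 0.05), and 2 rose and 1 fell in Adm+/- mice, including the constitutive eIF2alpha phosphatase subunit Ppp1r15b (0.66, adjusted p = 0.00202) and Wfs1 (−0.53, adjusted p = 0.0138). Among 18 translocon, 7 TRiC chaperonin and 10 mitochondrial chaperone genes edgeR and limma-voom called no gene in either genotype, and DESeq2 called 1 mitochondrial chaperone in Adm+/- mice. At an unadjusted edgeR p below 0.05 there were 2, 0 and 2 of them in each genotype. Several of the calls named here ended with 1 library left out. In Adm+/- mice Ube2g2 and Creld1 lost theirs in 4 of 6 such fits, Herpud2 in 3 and Wfs1 in 2, and the log2 fold changes nearest 0 were 0.46 for Ube2g2, −0.52 for Creld1, 0.48 for Herpud2 and −0.47 for Wfs1. Mesd lost its call in 1 fit of each genotype and Serp1 in 1 WT fit.

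Cytosolic stress genes beyond the members were mixed. Of 31 further heat shock genes, 2 rose and 2 fell in WT and 3 rose and 4 fell in Adm+/- mice, which is 12.9% and 22.6% against 17.6% and 25% of all genes. Hspb8, a partner of the selective autophagy factor BAG3, rose by 0.90 (adjusted p = 0.00117) and 0.64 (adjusted p = 0.00423). Serpinh1, the collagen chaperone HSP47, fell from 693 to 393 CPM in WT (−0.82, adjusted p = 0.00969) and from 645 to 407 CPM in Adm+/- lungs (−0.66, adjusted p = 0.0177). In Adm+/- lungs the smallest p belonged to Cryab (−0.79, adjusted p = 0.000471) and Hsf4 (−1.65, adjusted p = 0.00327), both lower. Among 13 Hsp90 co-chaperones, Fkbp5, a glucocorticoid-induced gene, rose from 51.1 to 351 CPM and from 34.4 to 394 CPM (log2 fold changes 2.78 and 3.52, adjusted p = 0.000259 and 6.40e-05), and its relative Fkbp4 fell by 0.83 (adjusted p = 0.0295) and 1.03 (adjusted p = 0.00723) on the log2 scale. The WT value of Fkbp4 was −0.49 without WT PBS library 5, and its call ended without that library, without WT LPS library 9 or 11 and with only the libraries compared. The WT call of Serpinh1 ended without WT LPS library 9 and with only the libraries compared.

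The remaining comparisons asked whether the genotype mattered. Under PBS no member was called, as was no gene in the whole table (0% of 15885 in edgeR, and none in limma-voom and DESeq2). At an unadjusted p below 0.05 edgeR found 344 genes (2.17%), of which 1 was a member (Hsp90aa1), and limma-voom and DESeq2 each found 2 members (Hspa8 and Hsp90aa1). Hsp90aa1 was at 152, 156 and 142 CPM in WT PBS and 181, 185 and 165 CPM in Adm+/- PBS, a log2 difference of 0.24 (adjusted p = 0.999), for a gene of which 47.5% of windows are shared with other gene models. Hspa8 had 0.18, Manf 0.21, Sel1l 0.12 and Dnajc3 0.10, with the same adjusted p, and these 5 were also the members whose PBS groups did not overlap, against 4.99% of all genes (2.47% higher and 2.51% lower). All 5 were higher in Adm+/- lungs.

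Under LPS no member was called between genotypes in edgeR or limma-voom, against 2.05% of all genes in edgeR (0.327% higher and 1.72% lower), and DESeq2 called 2, Hspb1 and Hspa1b, both lower in Adm+/- lungs, against 5.06% of all genes in DESeq2. At an unadjusted p below 0.05 edgeR and DESeq2 found 5 members and limma-voom 6, where 14.3%, 15.5% and 14.5% of all genes passed, so that the members' share was near that of all genes. The log2 difference of Adm+/- from WT under LPS was −1.22 (SE 0.33, adjusted p = 0.0852) for Hspa1b, 0.46 (SE 0.13, adjusted p = 0.0954) for Xbp1, 0.42 (SE 0.12, adjusted p = 0.106) for Atf4, −0.77 (SE 0.23, adjusted p = 0.115) for Hspb1 and 0.24 (SE 0.10, adjusted p = 0.327) for Manf. The groups did not overlap for 5 members, as for 24.6% of all genes (12.2% higher and 12.4% lower): Atf4, Xbp1 and Manf were higher and Hspb1 and Eif2ak3 lower in Adm+/- lungs. For Eif2ak3 the lowest WT LPS and the highest Adm+/- LPS library were both at 54.16 CPM to 4 digits. Its log2 difference was −0.14 (adjusted p = 0.859, edgeR). Without WT LPS library 10, Hspa1b (−1.54, adjusted p = 0.00483) and Hspb1 (−0.96, adjusted p = 0.0386) were called, and without WT LPS library 9 Xbp1 was (0.58, adjusted p = 0.0496). Squamous markers summed to 25.8 CPM in WT LPS library 10, to 2980 and 1522 CPM in libraries 9 and 11 and to 4.67 to 41.4 CPM in Adm+/- LPS. Muscle markers summed to 630 to 1822 CPM in WT LPS and to 19.3 to 39.7 CPM in Adm+/- LPS. The part of these transcripts in the Hspa1b and Hspb1 differences between genotypes was not tested.

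Whether LPS acted differently in the genotypes was tested by the interaction, in which no member was called, against 23 genes or 0.145% of all genes. Limma-voom and DESeq2 called no member either, and each of the 3 tools found 3 members, Hspb1, Xbp1 and Atf4, at an unadjusted p below 0.05, near the share of all genes (7.85% in edgeR, 7.16% in limma-voom and 8.78% in DESeq2). The difference of the log2 fold changes, Adm+/- minus WT, was −0.88 (SE 0.33, adjusted p = 0.501) for Hspb1, 0.45 (SE 0.18, adjusted p = 0.544) for Xbp1, 0.43 (SE 0.17, adjusted p = 0.548) for Atf4, 0.31 (SE 0.17, adjusted p = 0.736) for Ern1 and −0.84 (SE 0.47, adjusted p = 0.746) for Hspa1b. The calls of Atf4 in Adm+/- lungs and of Calr and Creld2 in WT lungs alone, as edgeR gave them, were therefore not shown to differ between genotypes.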

How the data were processed

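RNA of 12 neonatal mouse lungs was sequenced by the authors after ribosomal RNA depletion with a directional kit, trimmed with Trim Galore, aligned to mm10 with HISAT2 and counted on Gencode genes with featureCounts, per the submitters' processing notes and the methods. The table the authors deposited holds raw counts per gene, without normalization. The Gencode release and the strand setting of the counting are not given in the sources used here, so reads of overlapping genes may be shared. Total counts per library ranged from 22382535 to 38062873 (median 28494877). Reads carry no molecular identifiers, and counting precision covers counting error only.

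Analyses were run in R 4.3.3. Protein-coding genes (21950) that passed filterByExpr (15885) were normalized by TMM and tested with the quasi-likelihood F-test of edgeR 4.0.16 (glmQLFit and glmQLFTest), with 1 mean per group, no covariate and 8 residual degrees of freedom. The 5 contrasts were adjusted by Benjamini-Hochberg over all genes tested. Calls were made at an adjusted p below 0.05 with a log2 fold change beyond 0.5 in either direction. The p-values rest on the spread between mice within groups, estimated over all groups in 1 fit and moderated across genes. Each SE is the absolute log2 fold change divided by the square root of the F statistic. All 32 members are named, with the 5 smallest p where a genotype contrast called none, and from each further list the 2 smallest p per LPS contrast among called genes of at least 1 CPM. The members and lists were chosen with earlier results of these data known. Members with exonic overlaps or near-identical copies were marked from Gencode M21, in which 99.7% of the genes were found, by windows of 100 bases shared with other genes. Promoters are from RefSeq (GRCm38.p6). Of 12 library pairs of the same group none was identical. Alternatives were RLE size factors, DESeq2 1.42.0, limma-voom (limma 3.58.1), no filter on low counts, all gene types, only the libraries compared, glmTreat, no fold filter, Hspa1a and Hspa1b summed, and each library left out. Code was tested on simulated data.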

Additional observations from a re-analysis of the deposited data

How the results depend on the processing

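Of the 32 members, 8 were called in WT mice. The count was 4 when only the libraries compared were fitted, 2 in glmTreat (Herpud1 and Hspb1), and 4 to 8 with 1 library left out in turn, the 4 without WT PBS library 5 or WT LPS library 11. In Adm+/- mice 7 were called, and the count was 2 in glmTreat (Herpud1 and Ern1), 11 without the fold filter and 5 to 7 with 1 library left out. Other proteostasis genes called in WT went from 19 to 9 (only the libraries compared), to 5 (glmTreat) and to 7 to 21 (1 left out, 7 without WT LPS library 9 and 10 without WT PBS library 5), and in Adm+/- mice from 31 to 15 (glmTreat). Between genotypes under LPS the count of 0 members became 2 in DESeq2 (Hspa1b and Hspb1) and 0 to 2 with 1 library left out. The cause of these shifts was not tested. No paired analysis was possible because the library numbers in the labels are shared by no groups.

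Sign changes concerned only members that were not called, and called members kept their sign in every alternative. In WT mice these were Dnajb11 (log2 fold change −0.012) and Dnajb1 (−0.0033) with all gene types, and Eif2ak3 (0.064), Xbp1 (0.043) and Hsp90aa1 (−0.011) without libraries 5 and 6. With 1 library left out in turn, sign changes in WT were seen for Canx (−0.12 to 0.017), Dnajb11 (−0.039 to 0.059), Eif2ak3 (−0.30 to 0.064), Xbp1 (−0.16 to 0.059), Trib3 (−0.018 to 0.36), Hspa1a (−0.17 to 0.40), Dnajb1 (−0.0036 to 0.060), Hsp90aa1 (−0.030 to 0.073). In Adm+/- mice they were Dnajc3 (−0.0015) and Edem1 (−0.0018) without the filter on low counts, Dnajc3 (−0.0098), Edem1 (−0.011) and Dnajb1 (−0.0067) with all gene types, and Dnajb11 (0.0020), Ddit3 (0.0020), Hsph1 (−0.0013) and Dnajb1 (−0.019) without libraries 5 and 6. With 1 library left out in turn, sign changes in Adm+/- mice were seen for Dnajc3 (−0.012 to 0.023), Edem1 (−0.035 to 0.056), Hspa1b (−0.24 to 0.035), Hsph1 (−0.083 to 0.080), Dnajb1 (−0.028 to 0.043).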
